A study of Mus musculus with 10 samples.

Results

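The genes of glycolysis, gluconeogenesis and glycogen were followed in the livers of 10 mice as a set of 36 genes, chosen by symbol from the 24009 gene symbols of the deposited expression table. Each of the 36 was listed as 1 transcript row, and 35 passed the filter on low values. Of the 10 mice, all young adult C57BL/6 males, 5 received AdVEGF, an adenovirus that carries VEGF-A behind the CMV promoter, and 5 received AdCMV, an empty adenovirus whose CMV promoter drives nothing. Both vectors were given through the tail vein, the whole liver was taken on day 6, and every group therefore carried an adenoviral load, with no uninjected group among the samples. The labels call the animals biological replicates, and the expression unit is the RPKM, the reads on a transcript scaled by its length and by the mapped reads of the library.

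Glycolysis splits glucose into pyruvate and gluconeogenesis runs the same road backwards, with separate enzymes at the irreversible steps: hexokinase against glucose-6-phosphatase, phosphofructokinase against fructose-1,6-bisphosphatase, and pyruvate kinase against pyruvate carboxylase with phosphoenolpyruvate carboxykinase. The hepatocyte is the main site of gluconeogenesis in the body and also stores glycogen. It uses its own isozymes at several steps, among them the L-type pyruvate kinase, whereas most other cells carry the M-type pyruvate kinase. Insulin and glucagon set the balance between both directions with the feeding state.

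The libraries held between 5596565 and 13494006 mapped tags, so a transcript of 1 kb with 3 reads stood at 0.222 to 0.536 RPKM. Transcripts of the 21 Mup genes took 18.0% to 50.5% of the reads in the AdCMV libraries and 7.84% to 28.6% in the AdVEGF libraries, and the median log2 fold change (AdVEGF minus AdCMV) of all 13933 transcripts tested was 0.38 on the deposited RPKM and -0.0044 after median-ratio scaling, which divides each library by the median of its gene-wise ratios to the average library. Most fold changes below were therefore also read against that median or after that scaling. The Vegfa row of the table had a lowest, median and highest value of 13.8, 17.7 and 23.2 RPKM in the AdCMV mice and of 28.3, 29.7 and 39.4 RPKM in the AdVEGF mice, with no overlap. Its log2 fold change was 0.82 (SE 0.19, limma adjusted p = 0.00487) as deposited and 0.42 (SE 0.12, limma adjusted p = 0.0244) after median-ratio scaling. How far this row counts RNA of the vector was not tested. The 7 hepatocyte markers listed, Alb and Apoa1 among them, were present in every library and summed to 20630 to 26038 RPKM under AdCMV and to 34522 to 42710 RPKM under AdVEGF. These sums are deposited RPKM, and the median log2 fold change of the 7 was 0.42 as deposited and 0.018 after median-ratio scaling.

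Hk1, Pkm, Ldhb and Pck2 stood higher in the AdVEGF livers, and no other member passed the same rule in either direction. On the deposited RPKM, 4 of the 35 members tested, or 11.4%, were called higher in the AdVEGF mice (limma, a log2 fold change over 1 at an adjusted p under 0.05), where 13% of all transcripts tested were called higher, and 0 members were called lower, where 1.54% of all transcripts were. By adjusted p alone 6 members, or 17.1%, stood higher and 0 lower, against 21.9% and 2.23% of all transcripts. The shares of members were thus near those of the table as a whole. The groups did not overlap in 5 members, all with the AdVEGF mice above, a share of 14.3%, the same as the 14.3% of all transcripts placed above and against 1.29% placed below.

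Where the members lay against 0 depended on the scaling. Its median log2 fold change was -0.04, which lay 0.43 under the median of all transcripts, and 26 of the 35 members, 74.3%, lay under that median. After median-ratio scaling, 2 members were called higher (Hk1 and Pck2) and 1 lower (Pfkfb1), against 7.77% and 3.14% of all transcripts. By adjusted p alone 3 members then stood higher and 9 lower, or 8.57% and 25.7%, beside 12.7% and 10.3% of all transcripts. The groups did not overlap in 3 members with the AdVEGF mice above and in 7 with the AdVEGF mice below, or 8.57% and 20% of them, where 10.6% and 7.16% of all transcripts were so placed.

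**Figure D1:**
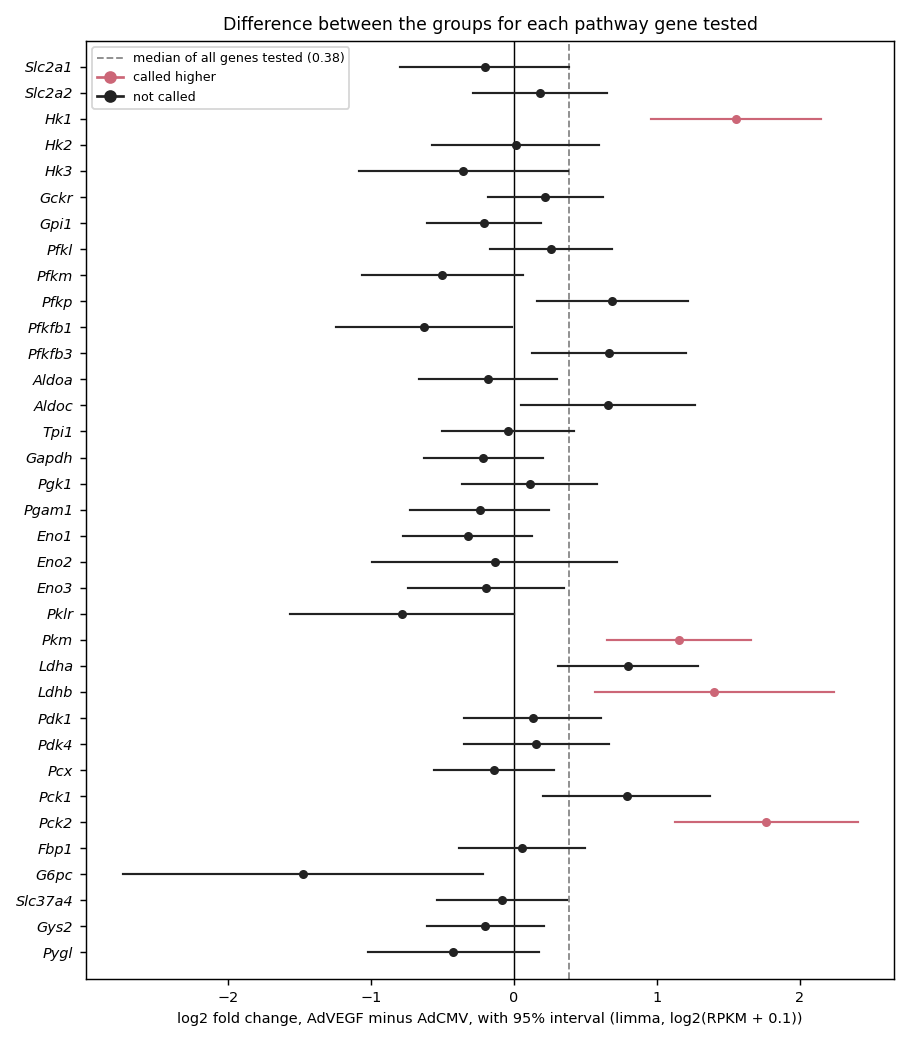
Log2 fold change of each of the 35 members tested (horizontal axis, AdVEGF minus AdCMV, with its 95% interval from limma), ordered from glucose transport to glycogen. Hk1, Pkm, Ldhb and Pck2, in red, were called higher, and 26 members lay to the left of the dashed line that marks the median of all transcripts tested at 0.38.

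Hk1, the hexokinase of most tissues, was the 1 member called among the proteins that trap glucose (NM_001146100, chr10:61731603-61803169 in mm9, minus strand). Hk1 stood, in the order of mice 1 to 5 as in every list of values that follows, at 0.768, 0.573, 1.07, 0.461 and 1.18 RPKM in the AdCMV mice and 2.45, 2.77, 1.99, 2.82 and 2.3 RPKM in the AdVEGF mice. Every AdVEGF mouse was above every AdCMV mouse. Its log2 fold change was 1.55 (SE 0.28, limma adjusted p = 0.000633), which was 1.17 above the median of all transcripts, and after median-ratio scaling it was 1.19 (SE 0.19, limma adjusted p = 0.000631).

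Pck2, the mitochondrial phosphoenolpyruvate carboxykinase, had the largest log2 fold change of the 35 members (NM_028994, chr14:56159103-56168854 in mm9, plus strand). Pck2 was measured at 0.978, 1.75, 2.73, 0.657 and 1.49 RPKM in the AdCMV mice and 4.83, 5.37, 5.27, 5.33 and 3.81 RPKM in the AdVEGF mice. The groups lay apart, with the lowest AdVEGF mouse above the highest AdCMV mouse. Pck2 changed by a log2 fold change of 1.77 (SE 0.30, limma adjusted p = 0.000395), or 1.38 above the median of all transcripts, and after median-ratio scaling 1.39 (SE 0.21, limma adjusted p = 0.000373).

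Pkm, the M-type pyruvate kinase, was higher in all AdVEGF mice than in any AdCMV mouse (NM_011099, chr9:59504175-59527182 in mm9, plus strand). The Pkm values were 22.6, 26.3, 41.9, 17.7 and 28.1 RPKM in the AdCMV mice and 49.7, 51.4, 67.1, 84.3 and 47.2 RPKM in the AdVEGF mice. Its log2 fold change was 1.15 (SE 0.24, limma adjusted p = 0.00203), 0.77 above the median of all transcripts. After median-ratio scaling the groups still did not overlap, but at 0.75 (SE 0.15, limma adjusted p = 0.00316) the difference was under the fold threshold.

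Ldha and Ldhb encode the A and B subunits of lactate dehydrogenase, which converts pyruvate to lactate and back. Ldha was one of the most abundant members, at 201, 224, 233, 203 and 233 RPKM in the AdCMV mice and 325, 355, 376, 676 and 270.3 RPKM in the AdVEGF mice. The groups did not overlap, with AdVEGF mouse 4 far above the other mice. The log2 fold change of Ldha was 0.80 (SE 0.23, limma adjusted p = 0.02), short of the fold threshold, and without AdVEGF mouse 4 it was 0.59 (limma adjusted p = 0.0383). Of the 10 fits without 1 mouse, that without AdCMV mouse 1 lost the adjusted p (0.77, limma adjusted p = 0.0555). Scaled by median ratios it was 0.40 (SE 0.22, limma adjusted p = 0.224) with overlapping groups.

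Ldhb lay near the detection limit (NM_008492, chr6:142438769-142456463 in mm9, minus strand). It was listed at 0.216, 0.926, 0.496, 0.746 and 0.271 RPKM in the AdCMV mice and 1.95, 0.947, 2.65, 1.06 and 1.04 RPKM in the AdVEGF mice, which rested on 2 to 16 reads in the AdCMV libraries and 9 to 19 in the AdVEGF libraries. The AdVEGF mice were above the AdCMV mice by a narrow margin, and the log2 fold change was 1.40 (SE 0.40, limma adjusted p = 0.0169). The call was lost without AdCMV mouse 1 (1.19, limma adjusted p = 0.0526) and without AdVEGF mouse 3 (1.19, limma adjusted p = 0.0604), and after median-ratio scaling the value was 1.04 (SE 0.41, limma adjusted p = 0.09).

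Pck1, the cytosolic phosphoenolpyruvate carboxykinase that glucagon induces and insulin represses, overlapped between the groups, at 69.2, 69.9, 64.6, 161 and 110.4 RPKM in the AdCMV mice and 98.4, 148, 146, 171 and 236 RPKM in the AdVEGF mice. AdCMV mouse 4 lay among the AdVEGF mice and AdVEGF mouse 1 among the AdCMV mice. The log2 fold change was 0.79 (SE 0.28, limma adjusted p = 0.0472), and after median-ratio scaling 0.39 (SE 0.36, limma adjusted p = 0.484). It passed the fold threshold without AdCMV mouse 4 (1.004, limma adjusted p = 0.0124) and lost the adjusted p in 7 of the 10 fits without 1 mouse, those without AdCMV mouse 1, 2 or 3 or AdVEGF mouse 2, 3, 4 or 5 (limma adjusted p = 0.0717 to 0.124). With no filter on low values the limma adjusted p was 0.0721.

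**Figure D2:**
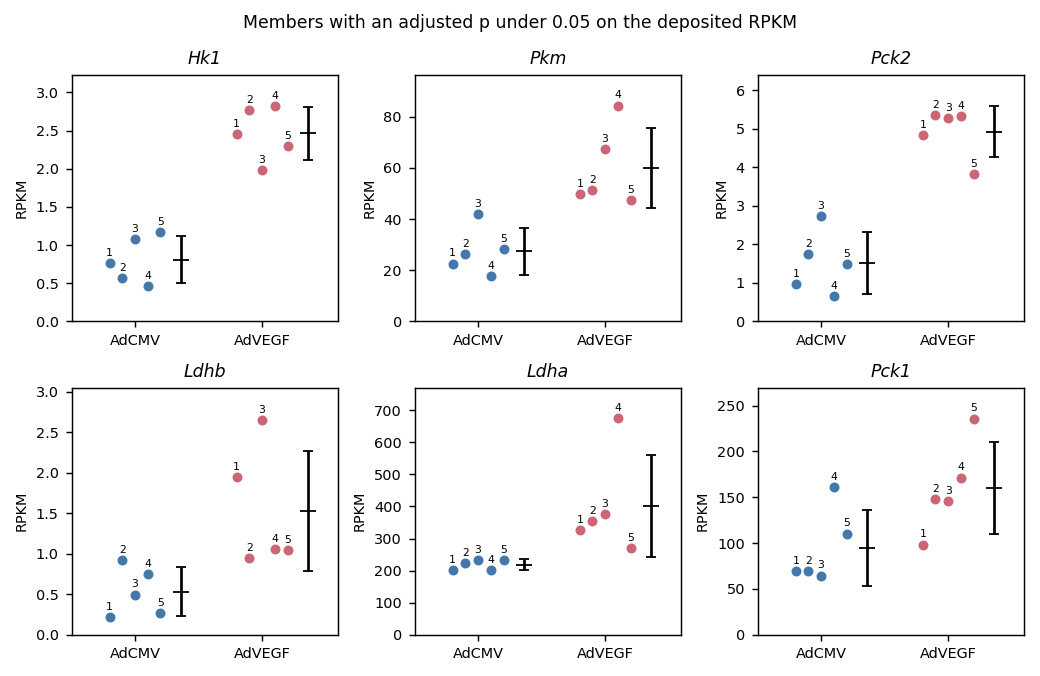
RPKM of Hk1, Pkm, Pck2, Ldhb, Ldha and Pck1 in each of the 5 AdCMV and 5 AdVEGF mice (vertical axes from 0, numbers are the mouse numbers, bars are the mean ± SD). The groups are apart in each panel except Pck1, and AdVEGF mouse 4 has 676 RPKM of Ldha.

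Since the whole liver was sequenced, a larger share of a cell type and more RNA of a gene per cell cannot be told apart. Of 11 endothelial markers listed, 10 were called higher, against 13% of all transcripts, and their summed level was 36.0 to 74.0 RPKM in the AdCMV mice and 304 to 377 RPKM in the AdVEGF mice. All 7 stellate and mural cell markers were called higher, with sums of 11.8 to 29.3 and 73.6 to 156 RPKM. Of 9 Kupffer cell and macrophage markers, 3 were called higher (58.3 to 144 and 133 to 200 RPKM in sum), and of 6 cholangiocyte markers, with 4 tested and Krt7 and Cftr under the filter, 1 was called higher (24.2 to 53.7 and 281 to 726 RPKM in sum). The median log2 fold change of these 4 was 0.69 and the highest 3.91, so the cholangiocyte sum rose mainly by 1 gene. Neutrophil markers had 2 of 6 called higher and B cell markers 3 of 4, T and NK cell markers had 5 of 6 tested called lower, against 1.54% of all transcripts, and erythroid and skeletal muscle markers had 0 called in either direction of 5 and 3 tested (limma; 0 of each also by adjusted p alone). After median-ratio scaling, where 7.77% of all transcripts were called higher and 3.14% lower, the counts were 2 for Kupffer cell and macrophage markers, 1 for B cell markers and 6 lower for T and NK cell markers, and those of the other lists stayed as given. Of the 7 hepatocyte markers, 2 were called higher as deposited and 0 after that scaling. The part of the markers of all these cell types in the higher levels of Hk1, Pkm, Pck2, Ldha and Ldhb was not tested.

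The stretches of 250 bases before the transcription start are shown for these 6 genes because they are the members that stood higher by adjusted p. They come from RefSeq (GRCm38.p6, while the expression table uses mm9) and run 5′ to 3′ along the gene's strand, and where a gene has several starts the one nearest to the listed transcript was taken. The start taken lay 208 bases from that of the listed transcript for Pkm, 121 for Hk1 and at most 25 for the others shown. Capitals mark the letters ACGTG or GCGTG on either strand (CACGT or CACGC when read on the printed strand), the core that hypoxia-inducible factors are known to bind. The stretches are at chr10:62340422-62340671 (minus strand) for Hk1, chr14:55540016-55540265 (plus) for Pck2, chr9:59656326-59656575 (plus) for Pkm, chr7:46846832-46847081 (plus) for Ldha, chr6:142507958-142508207 (minus) for Ldhb and chr2:173152823-173153072 (plus) for Pck1.
Hk1: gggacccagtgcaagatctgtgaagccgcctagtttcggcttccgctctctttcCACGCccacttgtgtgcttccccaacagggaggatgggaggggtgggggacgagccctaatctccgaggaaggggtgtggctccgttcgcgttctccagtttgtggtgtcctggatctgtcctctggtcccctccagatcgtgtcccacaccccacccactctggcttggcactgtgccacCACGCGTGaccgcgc
Pck2: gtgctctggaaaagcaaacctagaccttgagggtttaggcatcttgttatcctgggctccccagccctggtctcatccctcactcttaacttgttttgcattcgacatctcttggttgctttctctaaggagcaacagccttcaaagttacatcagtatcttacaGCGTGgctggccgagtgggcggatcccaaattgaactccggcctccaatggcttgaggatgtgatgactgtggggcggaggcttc
Pkm: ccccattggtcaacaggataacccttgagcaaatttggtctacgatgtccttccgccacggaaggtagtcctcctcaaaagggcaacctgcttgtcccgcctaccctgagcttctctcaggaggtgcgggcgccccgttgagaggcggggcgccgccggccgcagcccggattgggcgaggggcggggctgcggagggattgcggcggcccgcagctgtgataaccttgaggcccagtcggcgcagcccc
Ldha: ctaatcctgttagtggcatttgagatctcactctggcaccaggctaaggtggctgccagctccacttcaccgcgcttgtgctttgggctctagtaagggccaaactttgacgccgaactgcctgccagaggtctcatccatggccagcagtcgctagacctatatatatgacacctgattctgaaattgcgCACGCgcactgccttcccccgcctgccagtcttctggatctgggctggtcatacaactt
Ldhb: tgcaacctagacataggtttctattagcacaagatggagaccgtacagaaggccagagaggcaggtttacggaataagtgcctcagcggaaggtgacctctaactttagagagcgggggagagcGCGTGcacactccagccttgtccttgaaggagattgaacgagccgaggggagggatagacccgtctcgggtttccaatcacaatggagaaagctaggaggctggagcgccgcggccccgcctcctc
Pck1: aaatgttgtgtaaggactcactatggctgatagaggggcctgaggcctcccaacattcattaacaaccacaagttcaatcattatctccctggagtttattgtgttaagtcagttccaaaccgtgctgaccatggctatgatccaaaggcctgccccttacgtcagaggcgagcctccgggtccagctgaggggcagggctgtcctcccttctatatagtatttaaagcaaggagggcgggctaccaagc

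Hk1 held GCGTG 3 times, once 196 bases before the start and as an overlapping pair at 15 and 12 bases, and Pck2, Ldhb and Ldha held it 1 time each, at 85, 126 and 59 bases. Neither ACGTG nor GCGTG was in the stretches of Pkm and Pck1. Of the 35 members with a RefSeq promoter, which leaves out Gys2, 22 held ACGTG or GCGTG, or 62.9%, where 38.6% of the 32851 promoters of the table did. For GCGTG alone the shares were 45.7% and 28.2%, and for the E-box palindrome CACGTG, which overlaps ACGTG, 8.57% and 6.02%. The forkhead letters GTAAACA were in 2.86% of the members and 3.17% of all promoters, the cAMP response letters TGACGTCA in 0 members and 1.55% of all, and TATAAA in 14.3% and 12.4%, among them Pklr at 31 and G6pc at 29 bases before the start. Only these full letters were counted, so a variant such as TTACGTCA, which the Pck1 stretch holds, was not. Each member entered with 1 promoter, whereas all entries of the table were counted, with several for some genes and no matching for base content. The shares are thus of unlike sets, and enrichment was not tested. These are matches of letters, and no binding was measured.

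Among the glucose transporters, Slc2a2, the carrier of the hepatocyte, was the more abundant, at 64.3, 71.1, 96.7, 53.2 and 77.1 RPKM in the AdCMV mice and 115, 94, 82.2, 63.9 and 60.1 RPKM in the AdVEGF mice. The groups overlapped, and the log2 fold change of 0.18 (SE 0.22, limma adjusted p = 0.556) turned to -0.22 (SE 0.16, limma adjusted p = 0.366) after median-ratio scaling. Slc2a1, the carrier of most other cells and a hypoxia-induced gene, averaged 5.57 ± 1.78 RPKM in the AdCMV mice and 4.73 ± 1.56 RPKM in the AdVEGF mice (SD, n = 5 and 5), with AdVEGF mouse 4 the highest of its group at 7.44 RPKM.

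Among the proteins that handle free glucose, Gckr, a regulatory protein of hepatocyte glucose phosphorylation, was at 35.9, 35.2, 39.7, 24 and 27.2 RPKM in the AdCMV mice and 43.7, 34.5, 36.6, 36.5 and 35.1 RPKM in the AdVEGF mice. The groups overlapped, and its log2 fold change of 0.22 (SE 0.19, limma adjusted p = 0.396) changed sign to -0.18 (SE 0.16, limma adjusted p = 0.442) after median-ratio scaling. Hk2, the insulin-induced hexokinase of muscle and fat, averaged 1.45 ± 0.486 RPKM in the AdCMV mice and 1.43 ± 0.278 RPKM in the AdVEGF mice. Hk3, a hexokinase of myeloid cells whose row overlaps Unc5a on the other strand, averaged 3.42 ± 1.63 RPKM in the AdCMV mice and 2.65 ± 1.25 RPKM in the AdVEGF mice. Neither passed the adjusted p on either scale.

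In upper glycolysis, from glucose-6-phosphate to the triose phosphates, 0 of 9 members passed the adjusted p on the deposited RPKM and 4 stood lower by adjusted p after median-ratio scaling. Of all transcripts, 21.9% stood higher and 2.23% lower by adjusted p as deposited, and 10.3% stood lower after that scaling. Tpi1, the triose phosphate isomerase and the most abundant of them, was at 141, 140.0, 202, 107 and 133 RPKM in the AdCMV mice and 144, 120.1, 125, 201 and 114 RPKM in the AdVEGF mice. Its row overlaps Spsb2 on the other strand, and its log2 fold change was -0.04 (SE 0.22, limma adjusted p = 0.9) as deposited and -0.44 (SE 0.16, limma adjusted p = 0.0701) after scaling. The groups overlapped on both scales.

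Gpi1, the glucose-6-phosphate isomerase, was at 40.8, 44.9, 57.5, 34.1 and 49.2 RPKM in the AdCMV mice and 42.4, 34.3, 39.4, 44.5 and 33.5 RPKM in the AdVEGF mice. These values overlapped, and divided by the median-ratio factors they became 52.3, 56.1, 47.1, 51.6 and 49.7 in the AdCMV mice and 36.5, 29.3, 31.6, 37.4 and 33.6 in the AdVEGF mice. The scaled AdVEGF values were all under the AdCMV values, with a log2 fold change of -0.61 (SE 0.11, limma adjusted p = 0.0017) after -0.21 (SE 0.19, limma adjusted p = 0.426) on the deposited RPKM.

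Aldoa, the aldolase of muscle and most other tissues, was at 63.7, 69.4, 121, 60.02 and 79 RPKM in the AdCMV mice and 70.3, 58.9, 71, 92.6 and 49.8 RPKM in the AdVEGF mice. AdCMV mouse 3 was the highest. Aldoa had a log2 fold change of -0.18 (SE 0.23, limma adjusted p = 0.569) as deposited, with overlap, and -0.58 (SE 0.14, limma adjusted p = 0.0106) after scaling, with the AdVEGF mice below. Aldoc, the aldolase of brain, averaged 2.13 ± 0.662 RPKM in the AdCMV mice and 3.5 ± 1.3 RPKM in the AdVEGF mice. It had a log2 fold change of 0.66 (SE 0.29, limma adjusted p = 0.104) as deposited and 0.27 (SE 0.32, limma adjusted p = 0.588) after scaling.

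Phosphofructokinase, the committed step of glycolysis, has 3 genes. Pfkm, the muscle type, was at 2.46, 2.19, 3.71, 1.7 and 2.04 RPKM in the AdCMV mice and 1.52, 1.05, 2.04, 1.66 and 2.06 RPKM in the AdVEGF mice. Its log2 fold change was -0.50 (SE 0.27, limma adjusted p = 0.174) as deposited and -0.88 (SE 0.21, limma adjusted p = 0.00884) after scaling, with overlapping groups on both scales. Pfkl, the liver type, averaged 5.66 ± 1.13 RPKM in the AdCMV mice and 6.73 ± 0.993 RPKM in the AdVEGF mice. Pfkp, the platelet type, whose row overlaps Pitrm1 on the other strand, averaged 4.2 ± 1.56 RPKM in the AdCMV mice and 6.58 ± 1.26 RPKM in the AdVEGF mice. The log2 fold changes were 0.26 (SE 0.20, limma adjusted p = 0.354) for Pfkl and 0.69 (SE 0.25, limma adjusted p = 0.0533) for Pfkp. After scaling they were -0.14 (SE 0.12, limma adjusted p = 0.443) for Pfkl and 0.30 (SE 0.19, limma adjusted p = 0.294) for Pfkp.

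Pfkfb1 and Pfkfb3 make and break fructose-2,6-bisphosphate, the signal that turns phosphofructokinase on. Pfkfb1, the liver form that glucagon switches to the breakdown side, was at 3.77, 3.48, 4.71, 2.58 and 5.54 RPKM in the AdCMV mice and 3.62, 1.64, 1.45, 3.14 and 3.45 RPKM in the AdVEGF mice. AdVEGF mice 2 and 3 were the lowest and the groups overlapped, with a log2 fold change of -0.63 (SE 0.29, limma adjusted p = 0.124). After median-ratio scaling Pfkfb1 was the 1 member called lower, with the groups apart, at -1.01 (SE 0.28, limma adjusted p = 0.0184), and by upper-quartile scaling it was at -0.94 (limma adjusted p = 0.0317) and not called.

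Pfkfb3, the inducible form that favours synthesis, averaged 3.86 ± 1.72 RPKM in the AdCMV mice and 5.93 ± 1.26 RPKM in the AdVEGF mice with a log2 fold change of 0.67 (SE 0.26, limma adjusted p = 0.0668). After scaling the log2 fold change was 0.27 (SE 0.18, limma adjusted p = 0.3). AdCMV mouse 3, at 6.90 RPKM, was the 1 control mouse among the AdVEGF values as deposited.

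In lower glycolysis, from glyceraldehyde-3-phosphate to pyruvate, Pkm was the 1 of 8 members called higher, and 3 of the 8 stood lower by adjusted p after median-ratio scaling. Of all transcripts, 13% were called higher as deposited and 10.3% stood lower by adjusted p after that scaling. Eno1, the general enolase, was at 101, 110.4, 198, 99 and 130.4 RPKM in the AdCMV mice and 123, 93.2, 99, 88.2 and 93.1 RPKM in the AdVEGF mice. AdCMV mouse 3 was the highest by a wide margin, and in its library the Mup genes took 18.0% of the reads, the lowest share of the AdCMV group. The part of that share in its values was not tested. Eno1 had a log2 fold change of -0.32 (SE 0.21, limma adjusted p = 0.273) as deposited and -0.72 (SE 0.14, limma adjusted p = 0.00215) after scaling, when the groups no longer overlapped. Eno1 shares its position and strand in the table with Eno1b, a near-identical copy, so that the split of reads between both is uncertain.

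Gapdh, the glyceraldehyde-3-phosphate dehydrogenase that is often used as a reference gene, was at 91.6, 98.9, 126, 97.4 and 117 RPKM in the AdCMV mice and 97.9, 82.9, 82.8, 126 and 72.6 RPKM in the AdVEGF mice. The groups overlapped on both scales, with a log2 fold change of -0.21 (SE 0.20, limma adjusted p = 0.43) as deposited and -0.62 (SE 0.16, limma adjusted p = 0.0124) after scaling. Pgam1, the phosphoglycerate mutase, was at 77.7, 88.7, 130.2, 51.5 and 86.5 RPKM in the AdCMV mice and 75.8, 73.6, 68.4, 84.4 and 54.5 RPKM in the AdVEGF mice. Its groups overlapped as deposited, at -0.24 (SE 0.23, limma adjusted p = 0.455), and were apart after scaling, at -0.64 (SE 0.14, limma adjusted p = 0.00474). Gapdh, Pgk1, Tpi1, Pgam1, Aldoa, Pkm and Ldha are known to have processed copies elsewhere in the genome, so part of their reads could have been placed on or lost to such copies.

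Pgk1, the phosphoglycerate kinase, averaged 96.7 ± 23.2 RPKM in the AdCMV mice and 104 ± 26.9 RPKM in the AdVEGF mice. Eno3, the muscle enolase, averaged 2.73 ± 0.786 RPKM in the AdCMV mice and 2.36 ± 0.649 RPKM in the AdVEGF mice, and Eno2, the neuronal enolase, 0.61 ± 0.23 RPKM in the AdCMV mice and 0.569 ± 0.292 RPKM in the AdVEGF mice, which rested on 5 to 23 reads in the AdCMV libraries and 4 to 15 in the AdVEGF libraries. None of these 3 passed the adjusted p on either scale.

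Pklr, the L-type pyruvate kinase of the hepatocyte, which feeding induces, is given mouse by mouse although it falls outside the rule for that and was chosen after its values were seen (NM_001099779, chr3:88940545-88950516 in mm9, plus strand). It was at 22.4, 17.2, 22.2, 14.9 and 28.1 RPKM in the AdCMV mice and 29.1, 13.3, 13.2, 3.85 and 11.9 RPKM in the AdVEGF mice. AdVEGF mouse 1 was above all AdCMV mice and the other 4 were below all of them, with mouse 4 the lowest. The log2 fold change was -0.78 (SE 0.37, limma adjusted p = 0.132), it was called lower without AdVEGF mouse 1 (-1.10, limma adjusted p = 0.0256), and without AdVEGF mouse 4 it was -0.38 (limma adjusted p = 0.323). After median-ratio scaling over all mice it was -1.18 (SE 0.40, limma adjusted p = 0.0505).

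The pyruvate dehydrogenase kinases, which keep pyruvate out of the mitochondrial acetyl-CoA pool, overlapped between the groups. Pdk4, the fasting-induced kinase, was at 5.42, 7.09, 9.22, 5.15 and 7.82 RPKM in the AdCMV mice and 10.3, 9.04, 7.89, 4.68 and 7.21 RPKM in the AdVEGF mice. Its log2 fold change was 0.16 (SE 0.24, limma adjusted p = 0.641) and turned to -0.24 (SE 0.19, limma adjusted p = 0.403) after scaling. Pdk1, the hypoxia-induced kinase, averaged 5.32 ± 0.937 RPKM in the AdCMV mice and 5.94 ± 1.77 RPKM in the AdVEGF mice, and its log2 fold change of 0.13 (SE 0.23, limma adjusted p = 0.683) turned to -0.26 (SE 0.18, limma adjusted p = 0.335).

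Among the 7 gluconeogenic genes, Fbp1, the fructose-1,6-bisphosphatase of liver, was the most abundant, at 379, 344, 336, 309 and 309 RPKM in the AdCMV mice and 406, 304, 301, 502 and 273 RPKM in the AdVEGF mice. AdVEGF mouse 4 was the highest and mouse 5 the lowest of all 10, and the log2 fold change of 0.06 (SE 0.21, limma adjusted p = 0.854) turned to -0.35 (SE 0.22, limma adjusted p = 0.287) after scaling. Fbp2, the muscle form, was listed at 0 to 0.691 RPKM in the AdCMV mice and at 0 to 0.957 RPKM in the AdVEGF mice, on at most 10 reads, and was not tested.

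Pcx, the pyruvate carboxylase, whose row overlaps Lrfn4 on the other strand, was at 75.2, 58.2, 73.9, 56.6 and 65.6 RPKM in the AdCMV mice and 65.5, 53.8, 48.6, 85.7 and 50.3 RPKM in the AdVEGF mice. The groups overlapped on both scales, and the log2 fold change was -0.14 (SE 0.20, limma adjusted p = 0.62) as deposited and -0.54 (SE 0.18, limma adjusted p = 0.0489) after scaling. Slc37a4, which carries glucose-6-phosphate into the endoplasmic reticulum, averaged 25.2 ± 4.7 RPKM in the AdCMV mice and 24.2 ± 6.54 RPKM in the AdVEGF mice, with a log2 fold change of -0.08 (SE 0.22, limma adjusted p = 0.796). After scaling the value for Slc37a4 was -0.48 (SE 0.19, limma adjusted p = 0.0851).

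G6pc, the catalytic subunit of glucose-6-phosphatase and the last step of glucose release, had the lowest log2 fold change of the 35 members and was likewise chosen after its values were seen (NM_008061, chr11:101229044-101239217 in mm9, plus strand). G6pc was at 74, 96.9, 49.2, 81.4 and 75.6 RPKM in the AdCMV mice and 72.9, 55.3, 15.2, 3.52 and 58.8 RPKM in the AdVEGF mice. AdVEGF mice 4 and 3 were far below all others, while the other 3 AdVEGF mice lay among the AdCMV mice. The log2 fold change was -1.47 (SE 0.60, limma adjusted p = 0.081) and the 95% interval ran from -2.74 to -0.21. After median-ratio scaling it was -1.88 (SE 0.73, limma adjusted p = 0.0828).

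The call for G6pc moved with single mice and with the model. G6pc was called lower without AdVEGF mouse 1 (-1.84, limma adjusted p = 0.0333) and without AdVEGF mouse 5 (-1.76, limma adjusted p = 0.0474), and by voom on the recovered reads (-1.49, limma adjusted p = 0.0325). Without AdVEGF mouse 4 the value was -0.76 (limma adjusted p = 0.142), and without AdVEGF mouse 3 it was -1.28 (limma adjusted p = 0.171).

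AdVEGF mouse 4 stood at an end of its group in many members. Of the 5 AdVEGF mice it had the lowest G6pc, Pklr, Pygl, Pdk4, Eno1 and Hk3. It had the highest Ldha, Pkm, Fbp1, Pgk1, Tpi1, Gapdh, Pgam1, Aldoa, Gpi1, Pcx and Slc37a4. The same held for Pfkl, Pfkp, Hk1, Hk2, Slc2a1 and Fbp2. In the same mouse the 6 neutrophil markers summed to 220 RPKM, against 29.1 to 67.9 RPKM in the other 4 AdVEGF mice, the 10 pericentral markers to 371 RPKM, against 615 to 940 RPKM, and the 11 feeding-induced lipogenic genes to 415 RPKM, against 864 to 2560 RPKM. Among the AdCMV mice the highest neutrophil sum was 112 RPKM, in mouse 2. The part of these differences in the values of G6pc, Pklr and Ldha was not tested.

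**Figure D3:**
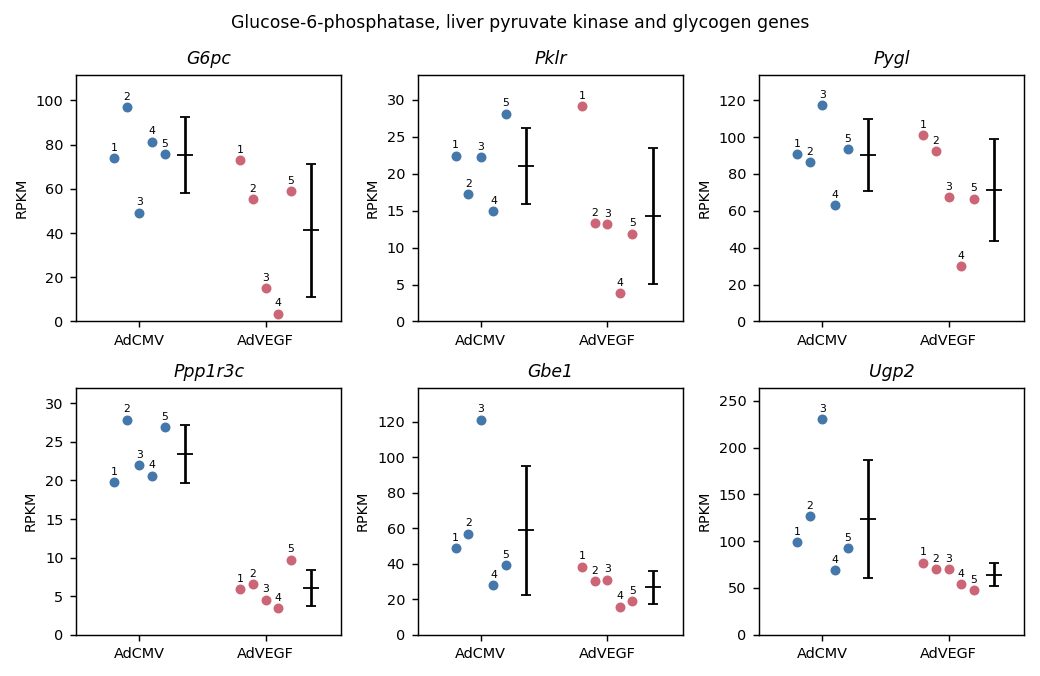
RPKM of G6pc, Pklr and Pygl, which are members, and of Ppp1r3c, Gbe1 and Ugp2, further glycogen genes, in each mouse (vertical axes from 0, numbers are the mouse numbers, bars are the mean ± SD of 5 mice). AdVEGF mouse 4 is lowest in G6pc, Pklr and Pygl, and the groups are apart in Ppp1r3c alone.

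Of the glycogen genes among the members, Pygl, the liver glycogen phosphorylase, was at 90.9, 86.6, 117, 63 and 93.4 RPKM in the AdCMV mice and 101, 92.5, 67.5, 29.96 and 66.7 RPKM in the AdVEGF mice. The groups overlapped on the deposited RPKM, at -0.42 (SE 0.28, limma adjusted p = 0.278), and were apart with the AdVEGF mice below after scaling, at -0.82 (SE 0.28, limma adjusted p = 0.0505). Without AdVEGF mouse 4 the deposited log2 fold change was -0.14 (limma adjusted p = 0.675).

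Gys2, the liver glycogen synthase, was at 15.9, 16.7, 18.9, 12.1 and 16.3 RPKM in the AdCMV mice and 17.9, 10.8, 13.1, 13.6 and 14.3 RPKM in the AdVEGF mice. As deposited the groups overlapped with a log2 fold change of -0.20 (SE 0.19, limma adjusted p = 0.459). After scaling the AdVEGF mice were all below, at -0.60 (SE 0.16, limma adjusted p = 0.0155).

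**Figure D4:**
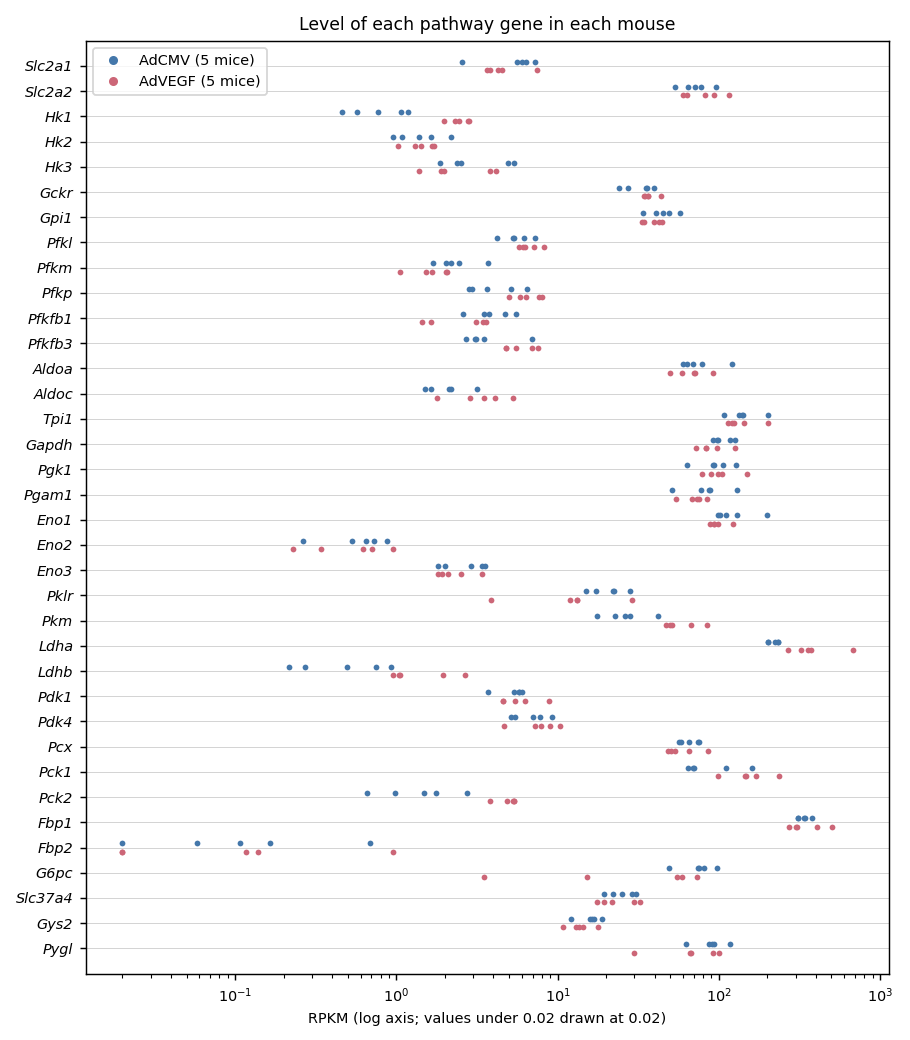
RPKM of the 36 members in each mouse (horizontal log axis, blue for AdCMV, red for AdVEGF, values under 0.02 drawn at 0.02), from glucose transport at the top to glycogen at the bottom. Fbp1 and Ldha are the most abundant, and on these deposited values the red points lie wholly to the right of the blue ones in Hk1, Pkm, Ldha, Ldhb and Pck2.

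Ratios of 2 genes within a library, taken as log2 of (RPKM + 0.1) over (RPKM + 0.1), hardly depend on how libraries are scaled to each other. Of the 20 pairs planned, mostly an isozyme of other tissues over the liver isozyme of the same step, 19 could be tested, Fbp2 over Fbp1 being left out, and 14 are given here with p-values adjusted over all 19. Of the 14, 0 passed an adjusted p of 0.05 in the two-sided exact permutation test over the mice, whose smallest p is 0.00794. Unadjusted, 5 of the 14 had p under 0.05.

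For 2 of these pairs the groups did not overlap. The ratio of Pfkm to Pfkl was 0.466, 0.407, 0.511, 0.403 and 0.331 in the AdCMV mice and 0.263, 0.172, 0.284, 0.201 and 0.327 in the AdVEGF mice. Here the AdVEGF mice were all below, by a margin as thin as 0.327 against 0.331, with a difference in mean log2 ratio of -0.76 (exact permutation p = 0.00794, 0.0503 adjusted over the 19 pairs). The ratio of Pygb, the brain glycogen phosphorylase, to Pygl was 0.0167, 0.0256, 0.0303, 0.0154 and 0.0336 in the AdCMV mice and 0.0486, 0.0458, 0.043, 0.155 and 0.0672 in the AdVEGF mice. The AdVEGF mice were all above, with a difference in mean log2 ratio of 1.40 (exact permutation p = 0.00794, 0.0503 adjusted over the 19 pairs). Without AdVEGF mouse 1 or 5 the adjusted exact permutation p of both pairs was 0.0377. That value too was set by how many pairs shared the smallest p.

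For the M-type over the L-type pyruvate kinase, Pkm to Pklr, the ratio was 1.01, 1.53, 1.89, 1.18 and 1 in the AdCMV mice and 1.71, 3.87, 5.1, 21.9 and 3.97 in the AdVEGF mice. Apart from AdVEGF mouse 1, the AdVEGF mice were above all AdCMV mice, with a difference in mean log2 ratio of 1.94 (exact permutation p = 0.0159, 0.0603 adjusted over the 19 pairs). Without AdVEGF mouse 1 the adjusted exact permutation p of Pkm to Pklr was 0.0377, as was that of Pfkfb3 to Pfkfb1 without AdVEGF mouse 5. The ratio of Pfkfb3 to Pfkfb1 gave a difference in mean log2 ratio of 1.29 (exact permutation p = 0.0159, 0.0603 adjusted over the 19 pairs), and Gys1, the muscle glycogen synthase, to Gys2 gave a difference in mean log2 ratio of 1.22 (exact permutation p = 0.0238, 0.0754 adjusted over the 19 pairs). Pck1 over Pklr, a gluconeogenic over a glycolytic gene, gave a difference in mean log2 ratio of 1.57 (exact permutation p = 0.0635, 0.121 adjusted over the 19 pairs) and G6pc over Gckr a difference in mean log2 ratio of -1.70 (exact permutation p = 0.0556, 0.117 adjusted over the 19 pairs), in opposite directions.

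In the other 7 pairs the difference in mean log2 ratio ran from -0.39 (Slc2a1 to Slc2a2) to 0.98 (Pck2 to Pck1), and the lowest exact permutation p was 0.0556, for Pfkp to Pfkl.

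**Figure D5:**
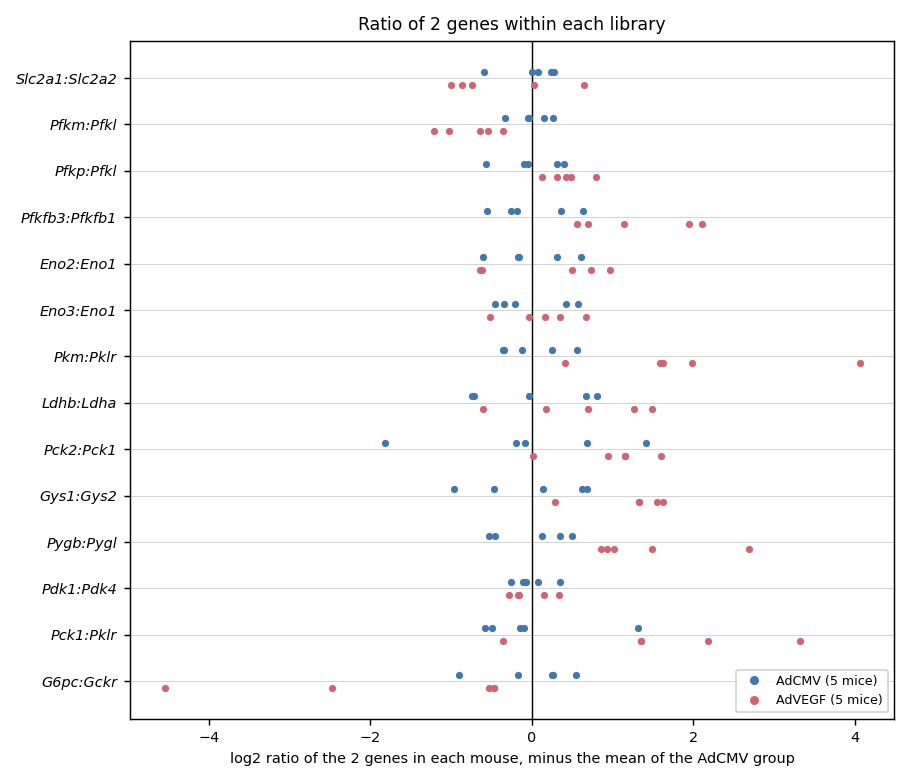
Log2 ratio of the 2 genes of each of the 14 pairs in each mouse, less the mean of the AdCMV group (horizontal axis, blue for AdCMV, red for AdVEGF). The colours are apart for Pfkm to Pfkl and Pygb to Pygl, and AdVEGF mice 3 and 4 lie far left for G6pc to Gckr.

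The rest of the pathway was read from lists of 95 further genes found in the table, of which 77 were tested: glycolytic isozymes, shuttle genes, glycogen genes, sugar transporters, and the pentose phosphate, fructose and galactose routes. Of these, 1 was called higher and 2 lower (13% and 1.54% of all transcripts), 3 and 5 by adjusted p alone (21.9% and 2.23% of all transcripts), and all 3 called are genes of glycogen. After median-ratio scaling 0 were called higher and 6 lower (7.77% and 3.14% of all transcripts), and by adjusted p alone 1 and 29 (1.3% and 37.7% of the 77, against 12.7% and 10.3% of all transcripts). The median log2 fold change of the 77 was -0.0019, 0.39 under the median of all transcripts, so that their position was close to that of the 35 members.

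Ppp1r3c, which brings protein phosphatase 1 to glycogen and so favours synthesis, was called lower, at 19.8, 27.9, 21.9, 20.6 and 26.9 RPKM in the AdCMV mice and 5.93, 6.6, 4.55, 3.5 and 9.73 RPKM in the AdVEGF mice. The groups did not overlap on either scale, the log2 fold change was -2.003 (SE 0.25, limma adjusted p = 1.21e-05), and the call held under each of the 21 alternatives. Gbe1, the glycogen branching enzyme, was at 49, 57, 121, 27.8 and 39.1 RPKM in the AdCMV mice and 38.4, 30.3, 31.1, 15.9 and 18.9 RPKM in the AdVEGF mice. Its groups overlapped, AdCMV mouse 3 stood far above the rest, and the log2 fold change was -1.02 (SE 0.33, limma adjusted p = 0.0356). The call of Gbe1 was lost without AdCMV mouse 1, 2 or 3 or AdVEGF mouse 4 or 5, and without AdCMV mouse 3 its value was -0.71 (limma adjusted p = 0.0532). After median-ratio scaling Gbe1 was called lower at -1.42 (limma adjusted p = 0.00301).

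Ugp2, which makes the UDP-glucose that glycogen synthase uses and whose row overlaps Vps54 on the other strand, was at 99.3, 127, 231, 69.1 and 92.5 RPKM in the AdCMV mice and 77.2, 69.9, 70.2, 54.2 and 47.9 RPKM in the AdVEGF mice. It stood lower by adjusted p alone, at -0.85 (SE 0.27, limma adjusted p = 0.0325), and was called after scaling, at -1.25 (SE 0.20, limma adjusted p = 0.000582). The phosphoglucomutase row NM_025700, which the table names Pgm1 and RefSeq now names Pgm2, was the 1 called higher, at 1.53, 2.54, 3.76, 1.87 and 2.89 RPKM in the AdCMV mice and 4.53, 4.24, 4.88, 7.4 and 5.23 RPKM in the AdVEGF mice. The AdVEGF mice were all above, with a log2 fold change of 1.07 (SE 0.26, limma adjusted p = 0.00595) that was under the threshold after scaling, at 0.68 (SE 0.18, limma adjusted p = 0.0174), and at 0.92 to 0.98 without AdCMV mouse 1 or 4 or AdVEGF mouse 4.

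By list, the 20 further glycolytic genes tested had 0 called, with 1 lower by adjusted p (Ldhd). The 14 gluconeogenic and shuttle genes had 0 called and 1 higher by adjusted p (Sds). The 20 glycogen genes held all 3 calls. By adjusted p alone 2 of these 20 stood higher and 3 lower, or 10% and 15%, against 21.9% and 2.23% of all transcripts. The median log2 fold change of the 20 glycogen genes was 0.26 as deposited, 0.12 under the median of all transcripts, and -0.13 after median-ratio scaling. The 8 transporters tested had none by either rule. The 15 genes of the pentose phosphate, fructose and galactose routes had 0 called and 1 lower by adjusted p (Khk, the ketohexokinase that starts fructose use, at -0.81 (SE 0.24, limma adjusted p = 0.021)). After median-ratio scaling more were lower by adjusted p alone: 11 of the 20 further glycolytic genes, 5 of the 14 gluconeogenic and shuttle genes, 6 of the 20 glycogen genes, 1 of the 8 transporters, and 6 of the 15 genes of the pentose phosphate, fructose and galactose routes. The share of all transcripts so placed was 10.3%. Of these lists 2 glycolytic genes, 3 glycogen genes and 1 gene of the last list were called lower on that scale, where 3.14% of all transcripts were.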

How the data were processed

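Liver RNA was depleted of ribosomal RNA, fragmented, tailed with poly(A), reverse transcribed and sequenced. Per the submitters' processing notes and the methods, the reads were mapped to mm9 with TopHat and counted with HOMER. The values are RPKM that the authors normalized to the uniquely mapped tags and deposited in 1 table of the whole series, whose columns of fold change and false discovery rate for their own comparison were not used. Whether counting used strand is not given in the sources used here. Transcript positions and lengths are those of the table. Rows without a symbol (5) held at most 0.00534% of the reads.

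The filter kept rows whose mean passed 0.5 RPKM in AdCMV or AdVEGF mice, and these were tested as log2(RPKM + 0.1) with limma 3.58.1 (lmFit, eBayes with trend, R 4.3.3), two-sided, with Benjamini-Hochberg adjustment over all 13933. A fold change is on that log2(value + pseudocount) scale, which understates low genes. Whole reads were recovered from the RPKM steps for 99.9% to 100% of the values of each library and tested by voom as an alternative, with 1993 transcripts called higher and 215 lower. Ratios were tested by exact permutation, and those of some pairs are not reported here. The scripts were tested on simulated data. Intervals cover the spread between mice only.

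Members were given mouse by mouse where they were called, passed an adjusted p of 0.05 as deposited or after median-ratio scaling, had groups that did not overlap on the deposited values, or were the most abundant of their role group, and the rest by mean ± SD. The members and the lists were chosen with earlier results of these data known. Other scalings, filters, pseudocounts, tests, a replicate block and each mouse left out were tried as alternatives. No 2 libraries of a group matched within sampling noise.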

Additional observations from a re-analysis of the deposited data

Results flagged for a closer look

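Of 72 groups of 5 mice (36 members, each in both groups), 7 held a mouse that stood apart from the other 4 by Dixon's test at the 95% level, where chance alone flags about 1 in 20 groups. AdVEGF mouse 4 was the highest of its group for Ldha (676.042 RPKM), Slc2a1 (7.444 RPKM) and Fbp2 (0.957 RPKM). AdVEGF mouse 1 was the highest for Gckr at 43.679 RPKM. AdCMV mouse 3 was the highest of its group for Pfkfb3 at 6.902 RPKM and for Fbp2 at 0.691 RPKM, and AdCMV mouse 4 was the lowest for Pdk1 at 3.691 RPKM. The values of G6pc in AdVEGF mice 3 and 4 did not meet this test, since a pair of low mice leaves no single gap.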

How the results depend on the processing

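Across all transcripts, 1808 called higher and 214 lower became 1082 and 438 with median-ratio scaling, 1072 and 447 with totals that leave out the Mup genes, 1169 and 366 with upper-quartile scaling, 503 and 36 by limma's treat against a log2 fold change of 1, and 954 higher with a pseudocount of 1 (147 lower). Of the members, 4 called higher became 2 with each of the 3 scalings and with a pseudocount of 1 and 0 by treat, where 503 transcripts were called, and 0 called lower became 1 with median-ratio scaling and with totals that leave out the Mup genes (Pfkfb1), and 1 with the replicate block and with voom (G6pc). Leaving out 1 mouse gave 3 to 5 members higher and 0 to 2 lower, the 2 being G6pc and Pklr without AdVEGF mouse 1. Of the other pathway genes, 1 higher and 2 lower became 0 and 6 with median-ratio scaling, 0 and 6 without the Mup genes, 0 and 5 by upper quartile, 0 and 1 with a pseudocount of 1, 0 and 1 by treat, and 3 higher with no filter, 2 with a pseudocount of 0.01, 2 with the replicate block and 3 with voom, and leaving out 1 mouse gave 0 to 3 higher and 1 to 3 lower. The call of Pck2 was lost by treat alone, that of Hk1 by treat and with a pseudocount of 1, that of Pkm by treat and the 3 scalings, and that of Ldhb by these 4, with a pseudocount of 1 and without AdCMV mouse 1 or AdVEGF mouse 3.

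No member that passed the adjusted p on the deposited values or after median-ratio scaling changed direction under the alternatives run, but members near 0 did, among them Tpi1, which passed it with totals that leave out the Mup genes (-0.46, limma adjusted p = 0.0488). The log2 fold changes became, with median-ratio scaling, -0.22 for Slc2a2, -0.36 for Hk2, -0.18 for Gckr, -0.14 for Pfkl, -0.29 for Pgk1, -0.26 for Pdk1, -0.24 for Pdk4, -0.35 for Fbp1; with totals that leave out the Mup genes, -0.23 for Slc2a2, -0.38 for Hk2, -0.19 for Gckr, -0.15 for Pfkl, -0.30 for Pgk1, -0.28 for Pdk1, -0.25 for Pdk4, -0.36 for Fbp1; and by upper quartile, -0.14 for Slc2a2, -0.29 for Hk2, -0.10 for Gckr, -0.064 for Pfkl, -0.22 for Pgk1, -0.19 for Pdk1, -0.16 for Pdk4, -0.27 for Fbp1. Hk2 was at -1.833e-05 with a pseudocount of 1. When 1 mouse was left out, members whose sign turned ran from -0.36 to 0.094 for Eno2, -0.075 to 0.14 for Fbp1, -0.11 to 0.16 for Hk2, -0.0202 to 0.21 for Pdk1, -0.0299 to 0.22 for Pgk1, -0.20 to 0.021 for Slc37a4, -0.18 to 0.087 for Tpi1. The log2 ratio of Ldhb to Ldha was -0.095 with a pseudocount of 1, and with 1 mouse left out the ratios ran from -0.86 to -0.64 for Pfkm:Pfkl, 1.08 to 1.53 for Pygb:Pygl, 1.40 to 2.32 for Pkm:Pklr, 1.09 to 1.47 for Pfkfb3:Pfkfb1, -0.0053 to 0.40 for Eno2:Eno1, -0.0066 to 0.29 for Eno3:Eno1, -0.12 to 0.062 for Pdk1:Pdk4. The cause of each of these moves beyond the changed scaling, pseudocount or sample was not tested.

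The labels number the mice 1 to 5 in both groups, and the deviations of same-numbered mice correlated at 0.0076 to 0.29 across transcripts, with 3 of 5 closest to their own number. These values do not settle whether equal numbers are pairs. The main fit therefore used no pairing, and the block was run as an alternative. With the replicate block 1933 transcripts were called higher and 256 lower, the members called were 4 higher and 1 lower, G6pc (-1.47, limma adjusted p = 0.00267), and no other member's call changed. Pklr passed the adjusted p with the block but not the fold threshold (-0.78, limma adjusted p = 0.0198). Keeping 1 row per gene symbol, that with the highest mean, changed no member's call. Each member and each gene of the pairs has 1 row. Depth limits Ldhb, Eno2, Fbp2 and Hk1, and the design of 5 against 5 mice limits the exact tests.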

Other observations

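Genes that the feeding state, low oxygen or the position in the lobule are known to set were counted in the same fit. Of 25 insulin, glucagon and transcription factor genes of glucose control, 0 were called by limma in either direction, 2 stood higher by adjusted p alone (Creb1 and Trib3), and their median log2 fold change was 0.31, 0.078 under the median of all transcripts. Of 12 fasting-induced liver genes, 2 were called higher, Fgf21 and Asns, which at 16.7% is near the 13% of all transcripts, and after median-ratio scaling 0 were higher by limma's call or by adjusted p alone. Of 11 feeding-induced lipogenic genes 2 were called lower, Me1, the malic enzyme, and Thrsp, against 1.54% of all transcripts, and 3 after median-ratio scaling, against 3.14%. Of 18 hypoxia-induced genes 3 were called higher, Epas1, Adm and Hilpda, a share of 16.7% that is also near that of all transcripts, and 2 after median-ratio scaling. By adjusted p alone 6 of the 18, or 33.3%, stood higher and 0 lower, against 21.9% and 2.23% of all transcripts. After median-ratio scaling 3, or 16.7%, stood higher by adjusted p alone and 0 lower, against 12.7% and 10.3%. The median log2 fold change of the 18 was 0.44 against 0.38 for all transcripts, with 9 genes above and 9 below the latter. Epas1 is also a gene of endothelial cells, whose markers were higher in these livers, and its part in the list was not tested.

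The 10 pericentral markers had a median log2 fold change of -1.18, and 5 of them were called lower, against 1.54% of all transcripts. Glul, the glutamine synthetase of the hepatocytes next to the central vein, was at 174 to 243 RPKM in the AdCMV mice and at 27.1 to 63.8 RPKM in the AdVEGF mice. Of the 10 periportal markers 0 were called in either direction by limma, 1 stood higher by adjusted p alone, and the median was 0.39, close to that of all transcripts.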
